A study of Mus musculus with 4 samples.

Results

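Some products of the CD40 pathway pass the signal from the receptor to NF-kappaB, and others restrain it. The genes described here, of CD40 signalling and the TRAF family, are Cd40, Traf1 to Traf6, Map3k14, Birc2 and Birc3. They were taken by name: every probe whose gene name in the scanner files is one of these 10 symbols, which gave 16 of the 39429 probes on the array. All 16 probes passed the filter on dim probes (signal well over background for 2 or more of the 4 arrays), so all 10 genes stand among the 15961 genes tested. The cells were B cells purified with magnetic beads from mouse spleen, and they were activated over 3 days by anti-IgM and anti-CD40, each at 10 µg/mL. The anti-IgM antibody engages the B cell receptor, and the anti-CD40 antibody engages the receptor whose pathway is followed here. Donors were Ackr4-deficient male mice, 73 and 71 days old (labelled Ackr4ko), and C57BL/6 male mice, 77 and 74 days old (labelled WT). Ackr4 encodes an atypical chemokine receptor, and every culture in both groups received both antibodies, so no resting or anti-CD40-free sample serves as a baseline for the pathway. The cultures were run as 2 experiments on separate mice. Either genotype has an array from each experiment, and the replicate number is the experiment.

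CD40 is a receptor of the TNF receptor family that T cells engage through CD40 ligand when they help B cells. It has no enzymatic activity and works by recruiting TRAF proteins, which are adaptors and, for most members, ubiquitin ligases. TRAF6 and TRAF2 connect CD40 to the TAK1 and IKK kinases and so to the canonical NF-kappaB arm and to JNK and p38. In the non-canonical arm, a complex of TRAF3, TRAF2 and the ubiquitin ligases cIAP1 (Birc2) and cIAP2 (Birc3) keeps the kinase NIK (Map3k14) low. CD40 engagement removes TRAF3 from that complex, NIK accumulates, and NF-kappaB2 is processed. Traf1 and Birc3 are themselves known NF-kappaB target genes.

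The scanner files and the authors' value table disagree on the genotype of each array, which touches every direction given below. Which of them is right was not tested here. Each column of the authors' value table matched best, within its experiment, the scanner file labelled with the opposite genotype (r = 0.999 to 1.00 over 16207 probes), not the scanner file of its own sample. The arrays are therefore called labelled Ackr4ko and labelled WT after their scanner files, and all signs turn round if the value table is right. Spots left out as outliers made up 6.24% on WT replicate 2, which stood apart from the other arrays (1.79% to 2.12%). The 6 B cell markers, among them Cd79a, Cd79b, Ms4a1, Pax5 and Cd22, were well above background on all 4 arrays. With 2 arrays a side, the smallest p that exact permutation can reach (two-sided) is 0.333, so the limma fit across all tested genes carries the tests. Values are log2 signals scaled to each array's 75th percentile, and signals of different probes are not compared with each other.

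**Figure D1:**
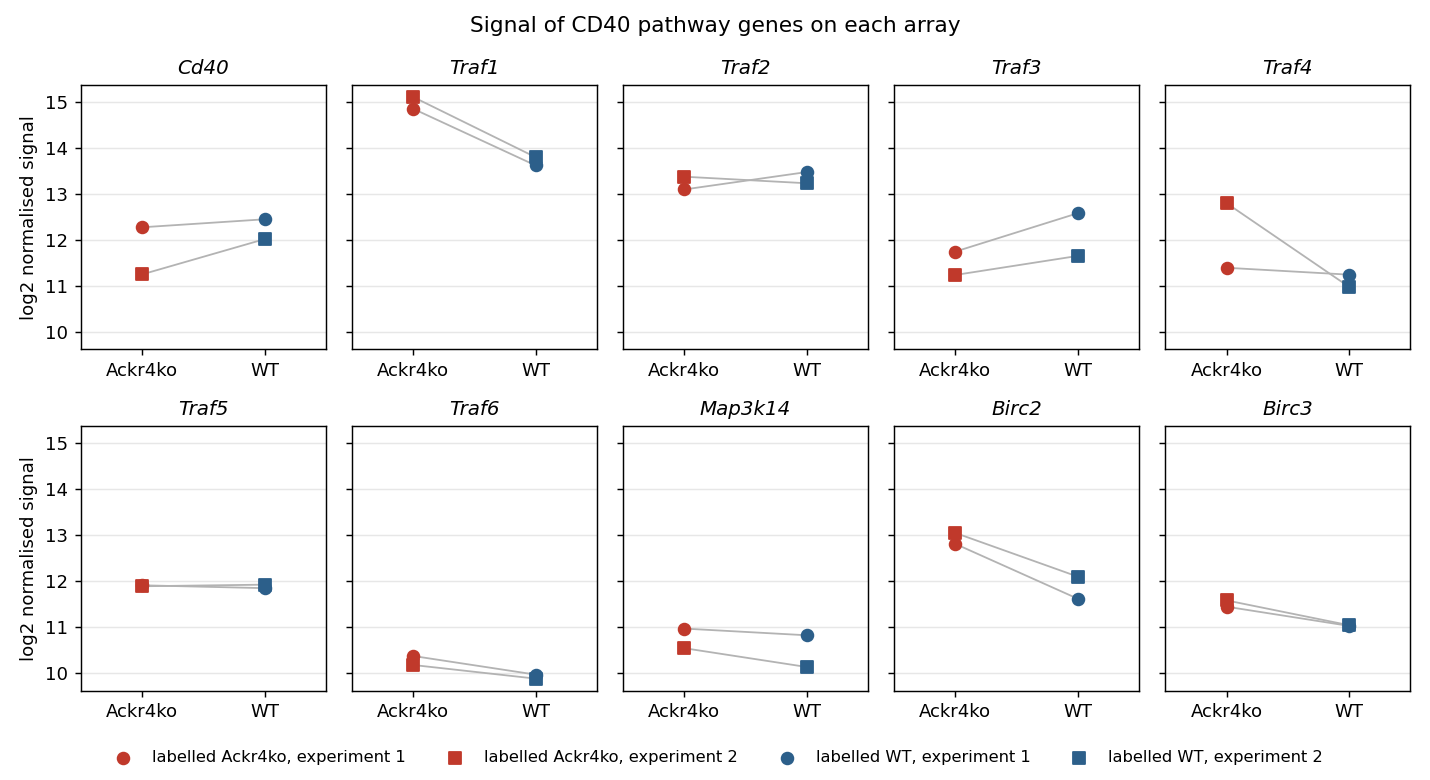
Normalised log2 signal (vertical axis) of the brightest probe of each gene on the arrays labelled Ackr4ko (red, left) and WT (blue, right). Circles are experiment 1, squares experiment 2, and a grey line joins the arrays of an experiment. Traf1, Birc2, Birc3, Traf4 and Traf6 have both red points above both blue points, and heights of different genes are not comparable.

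Within the pathway, Traf1, the TRAF protein that lacks a RING domain, and Birc2, which encodes cIAP1, were the genes with the largest differences that were of similar size in both experiments. Both were brighter on the arrays labelled Ackr4ko, while Traf3 and Cd40 were dimmer there in both experiments. None of these differences passed the test over all genes: 0 of 10 genes had an adjusted p under 0.05 in limma without a block, where 0.0125% of all tested genes did, and 2 of 10 (Traf1 and Birc2) had an unadjusted p under 0.05, where 4.59% of all tested genes did. With the experiment as a block, Traf1 was the 1 gene of the 10 that passed, where 3.33% of all tested genes did. The median log2 difference over the 10 genes was 0.31, against 0.083 over all tested genes. In both experiments the difference was positive for 6 of the 10 genes (33.0% of all tested genes) and negative for 2 (20.9%). For 5 genes both arrays labelled Ackr4ko lay above both arrays labelled WT (19.0% of all tested genes), and for 0 they lay below (10.0%).

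Cd40, the receptor, is read by 1 probe at chr2:164897085-164897144 (mm9, plus strand). It gave log2 signals of 12.27 and 11.25 in the cultures labelled Ackr4ko, against 12.45 and 12.02 in those labelled WT (experiments 1 and 2 in turn). The array labelled Ackr4ko replicate 2 was the lowest of the 4, and the groups overlapped, since Ackr4ko replicate 1 lay above WT replicate 2. The log2 difference was -0.47 ± 0.42 (limma SE over 2 cultures each, adjusted p = 1.00), with -0.17 in experiment 1 and -0.77 in experiment 2. Without Ackr4ko replicate 2 it was 0.041, and without Ackr4ko replicate 1 it was -0.98. The ligand gene Cd40lg was not well above background on enough arrays to be tested. The tested genes nearest to Cd40 in their pattern over the 4 arrays were BC057675, Os9 and Tor4a, at root mean square distances of 0.015, 0.026 and 0.032 log2 units after each gene was centred on its mean. All 3 were well above background on all 4 arrays, and with 4 arrays this likeness is a description only.

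Traf1, which binds TRAF2 and the cIAPs, was brighter on both arrays labelled Ackr4ko. Its probe lies at chr2:34798882-34798941 (mm9, minus strand). Signals were 14.85 and 15.10 in the cultures labelled Ackr4ko, against 13.61 and 13.79 in those labelled WT. The groups did not overlap, and the SD of 0.18 within Ackr4ko and 0.13 within WT was small beside the gap between them. The log2 difference was 1.27 ± 0.33 (limma SE over 2 cultures each, adjusted p = 0.511), a 2.41-fold difference, with 1.23 in experiment 1 and 1.31 in experiment 2. Traf1 was at least 2-fold brighter in both experiments, as were 1.28% of all tested genes. No member was at least 2-fold dimmer in both, as 0.514% of all tested genes were. With the experiment as a block limma gave an adjusted p = 0.0115 for Traf1, and the same block gave an adjusted p = 0.48 after quantile normalization and 0.0987 after centring on the median. The differences in these fits were 1.27 ± 0.35, 1.11 ± 0.23 and 1.21 ± 0.25 in turn (limma SE). Only the first of them gives every gene the same variance, so the scaling and the variance changed together. On simulated data the blocked fit made more false calls than the fit without a block, which limits what its adjusted p shows. With 1 array left out, the difference stayed between 1.14 and 1.40. In the authors' deposited table the Traf1 probe has normalized intensities of 21285 and 23954 in the Ackr4ko columns and 55271 and 44192 in the WT columns, which is the same separation with the genotypes turned round.

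The genes nearest to Traf1 in pattern were Mex3a, Klf11 and Kcp, at distances of 0.048, 0.055 and 0.063. These 3 genes were well above background on both arrays labelled Ackr4ko and on 0 of the 2 labelled WT, so their likeness to Traf1, which was bright on all 4 arrays, rests on dim values. Dendritic cell markers differed in the same direction: the summed signal of 6 dendritic cell markers was 10964 and 8615 on the arrays labelled Ackr4ko, against 4516 and 4748 on those labelled WT. Of these markers Itgax, Clec9a and Xcr1 were well above background on 0 of 4 arrays, Flt3 and Zbtb46 on all 4, and Batf3 on the 2 labelled Ackr4ko. Flt3 alone makes up nearly all of that sum, with log2 signals of 13.38 and 12.97 in the cultures labelled Ackr4ko, against 12.08 and 12.13 in those labelled WT. The summed signal of the 6 B cell markers was 328656 and 307670 in the cultures labelled Ackr4ko, against 401453 and 372272 in those labelled WT. T cell markers summed to 3097 and 4432 in the cultures labelled Ackr4ko, against 3320 and 4264 in those labelled WT, with Cd8a not well above background on any array. The 3 neutrophil markers summed to 581 and 630 in the cultures labelled Ackr4ko, against 380 and 426 in those labelled WT. Of them Ly6g was well above background on all 4 arrays, and S100a8 and S100a9 on 0. The 4 stroma and endothelium markers summed to 606 and 259 in the cultures labelled Ackr4ko, against 863 and 708 in those labelled WT, with Col1a1 and Pdgfrb well above background on 0 arrays. The 6 macrophage and monocyte markers summed to 19256 and 19641 in the cultures labelled Ackr4ko, against 18035 and 22384 in those labelled WT, with Cd14 and Lyz2 well above background on 0 arrays. The 3 NK cell markers were well above background on 0 arrays. The part of other cells in the Traf1 difference was not tested, and in these bulk samples more cells of a type and more RNA per cell cannot be told apart.

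Of the cIAP genes, neighbours on chromosome 9, Birc2 had higher signals on the arrays labelled Ackr4ko with both of its probes, and Birc3 with the brighter of its probes only. The brightest Birc2 probe, at chr9:7818688-7818747 (mm9, minus strand), gave 12.81 and 13.05 in the cultures labelled Ackr4ko, against 11.62 and 12.10 in those labelled WT. The groups did not overlap. Its log2 difference was 1.07 ± 0.34 (limma SE over 2 cultures each, adjusted p = 0.738, and 0.0588 with the block), a 2.10-fold difference, with 1.19 and 0.95 in experiments 1 and 2. The other Birc2 probe, at chr9:7836811-7836870, is far dimmer but showed the same order, with 8.78 and 8.81 in the cultures labelled Ackr4ko, against 7.93 and 7.93 in those labelled WT. That is a log2 difference of 0.87, with 0.85 and 0.88 in the experiments. Of the dimmer probe, 58 of 60 bases are found without a break in the RefSeq window around the more downstream of the Birc2 start sites, at positions -62 to -5 relative to that start.

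Birc3 differed by less, and its probes disagreed. The brighter one, at chr9:7854409-7854468 (mm9, minus strand), gave 11.45 and 11.58 in the cultures labelled Ackr4ko, against 11.03 and 11.04 in those labelled WT. Its groups did not overlap, and its log2 difference was 0.48 ± 0.32 (limma SE over 2 cultures each, adjusted p = 1.00), with 0.42 and 0.54 in experiments 1 and 2. The other, at chr9:7856162-7856221, gave 10.31 and 9.69 in the cultures labelled Ackr4ko, against 9.95 and 9.79 in those labelled WT, and its groups overlapped. Its difference was 0.36 in experiment 1 and -0.10 in experiment 2. The probes are shown because they read the same gene and disagree in experiment 2. They are written as deposited, in lower case throughout because no stretch is singled out.
Birc3 brighter probe: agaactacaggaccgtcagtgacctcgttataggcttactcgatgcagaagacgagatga
Birc3 dimmer probe: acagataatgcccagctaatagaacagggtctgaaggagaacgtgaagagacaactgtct
Birc2 and Birc3 are close relatives, but the longest run of bases shared by any Birc2 probe and any Birc3 probe was 8 of 60. Between probes of different genes among all 16 it was at most 9.

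**Figure D2:**
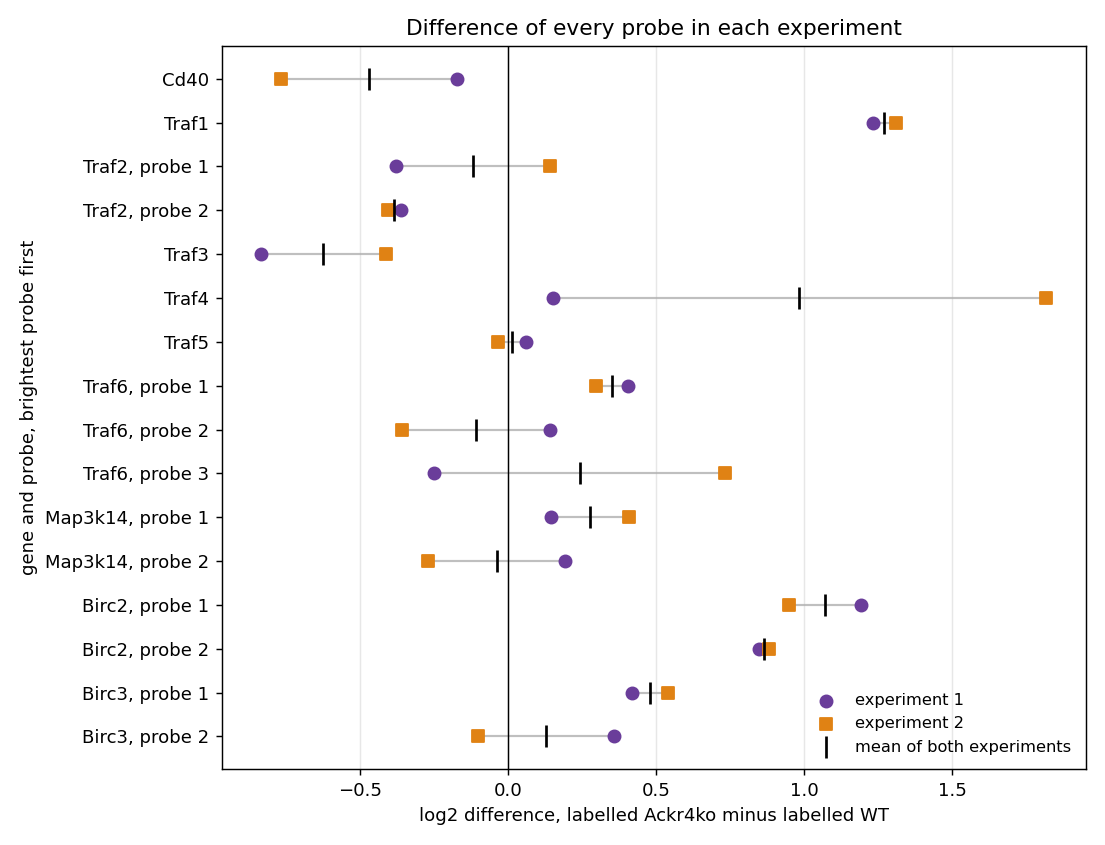
Log2 difference, labelled Ackr4ko minus labelled WT (horizontal axis), of each of the 16 probes in experiment 1 (circles) and experiment 2 (squares), with the mean as a black tick. Traf1 and both Birc2 probes have both symbols to the right at 0.85 to 1.31, while Traf4 has 0.15 and 1.82 and the lesser probes of Birc3, Map3k14 and Traf6 have symbols on both sides of 0.

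TRAF3, TRAF2 and NIK are the remaining parts of the non-canonical switch. Traf3, whose product is part of the complex that keeps NIK low, is read by 1 probe at chr12:112505252-112505311 (mm9, plus strand). It gave 11.75 and 11.24 in the cultures labelled Ackr4ko, against 12.58 and 11.65 in those labelled WT. Within each experiment the array labelled Ackr4ko was the dimmer, but the groups overlapped, because both arrays of experiment 2 were lower than their counterparts. The log2 difference was -0.62 ± 0.41 (limma SE over 2 cultures each, adjusted p = 1.00), with -0.83 and -0.41 in experiments 1 and 2. Leaving out 1 array moved it over -1.09 (without WT replicate 2) to -0.16 (without WT replicate 1).

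Traf2, the adaptor that brings the cIAPs to the complex, differed in opposite directions in the 2 experiments. Its brightest probe, at chr2:25374386-25374445 (mm9, minus strand), gave 13.09 and 13.37 in the cultures labelled Ackr4ko, against 13.47 and 13.23 in those labelled WT. The groups overlapped, and the difference was -0.38 in experiment 1 and 0.14 in experiment 2 (mean -0.12 ± 0.33, limma SE over 2 cultures each, adjusted p = 1.00). Leaving out Ackr4ko replicate 1 gave 0.020. Over all tested genes the median difference was -0.044 in experiment 1 and 0.23 in experiment 2, and Traf2 lay below it in both. A dimmer probe at chr2:25373541-25373600 gave -0.36 and -0.41, but was not well above background on the array labelled WT replicate 2. Map3k14, which encodes NIK, was read by a probe at chr11:103081249-103081308 (mm9, minus strand). It gave 10.97 and 10.55 in the cultures labelled Ackr4ko, against 10.83 and 10.14 in those labelled WT. Its groups overlapped, and the log2 difference was 0.28 ± 0.37 (limma SE over 2 cultures each, adjusted p = 1.00). Leaving out WT replicate 2 gave -0.067, and leaving out WT replicate 1 gave 0.62. The dimmer Map3k14 probe at chr11:103101069-103101128 gave 0.19 in experiment 1 and -0.27 in experiment 2. NIK is known to be controlled mainly through the stability of its protein, which these arrays do not measure.

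Among the other TRAF genes, Traf4, a family member best known outside the immune system, had the largest spread within a group of the 10 genes (SD of 0.99 within Ackr4ko). Its probe at chr11:77972913-77972972 (mm9, minus strand) gave 11.40 and 12.80 in the cultures labelled Ackr4ko, against 11.25 and 10.98 in those labelled WT. The array labelled Ackr4ko replicate 2 was far above the other 3. The log2 difference of 0.98 ± 0.47 (limma SE over 2 cultures each, adjusted p = 1.00) was made of 0.15 in experiment 1 and 1.82 in experiment 2, and leaving out Ackr4ko replicate 2 gave 0.28, while leaving out Ackr4ko replicate 1 gave 1.68. Traf5, a close relative of TRAF3 that can join TRAF2 at CD40, gave nearly the same signal on every array. Its probe at chr1:193821311-193821370 (mm9, minus strand) gave 11.91 and 11.89 in the cultures labelled Ackr4ko, against 11.85 and 11.92 in those labelled WT. The log2 difference was 0.014 ± 0.32 (limma SE over 2 cultures each, adjusted p = 1.00), and its sign turned with the scaling (-0.050 centred on the median, -0.085 after quantile normalization).

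Traf6, the ubiquitin ligase that binds CD40 at a site of its own, has 3 probes that gave different pictures. The brightest, at chr2:101519206-101519265 (mm9, plus strand), gave 10.38 and 10.18 in the cultures labelled Ackr4ko, against 9.97 and 9.89 in those labelled WT. Its groups did not overlap, and its log2 difference was 0.35 ± 0.32 (limma SE over 2 cultures each, adjusted p = 1.00). The probe at chr2:101540660-101540719, which carries the RefSeq accession of the gene, gave 0.14 in experiment 1 and -0.36 in experiment 2. The third, at chr2:101526308-101526367, gave -0.25 and 0.73, and was not well above background on the array labelled WT replicate 2. The mean over all 3 Traf6 probes was 0.16.

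Promoter windows were compared because Traf1 and Birc2 were brighter together and Traf3 dimmer. RefSeq windows of 300 bases (250 before the start and 50 after it, GRCm38.p6) were found for 9 of the 10 genes, 10 windows in all. Cd40 had no entry. The NF-kappaB consensus, the 10-base motif of that name, was searched on both strands. It was found in 1 of the 10 windows, against 5.80% of 32851 windows genome-wide. The match was in Traf3, GGGGATTTCC on the plus strand, starting 10 bases before the start site, and is in capitals below. A match of letters is not a bound site, and a window without one says only that these letters are not in it.
Traf1 window chr2:34961723-34962022 (GRCm38.p6, minus strand): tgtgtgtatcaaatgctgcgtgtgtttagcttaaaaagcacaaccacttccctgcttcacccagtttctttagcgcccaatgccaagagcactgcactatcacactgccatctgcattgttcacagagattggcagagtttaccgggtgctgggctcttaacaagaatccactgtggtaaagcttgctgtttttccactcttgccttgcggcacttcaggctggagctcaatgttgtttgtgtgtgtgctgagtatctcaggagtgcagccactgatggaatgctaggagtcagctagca
Birc2 upstream window chr9:7837008-7837307 (GRCm38.p6, minus strand): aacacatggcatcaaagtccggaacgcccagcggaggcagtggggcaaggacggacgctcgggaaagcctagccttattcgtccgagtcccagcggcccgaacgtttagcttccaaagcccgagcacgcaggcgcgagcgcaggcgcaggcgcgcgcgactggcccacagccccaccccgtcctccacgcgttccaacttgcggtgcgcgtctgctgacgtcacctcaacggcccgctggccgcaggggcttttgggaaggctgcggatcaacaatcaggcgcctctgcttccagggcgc
Traf3 window chr12:111166120-111166419 (GRCm38.p6, plus strand): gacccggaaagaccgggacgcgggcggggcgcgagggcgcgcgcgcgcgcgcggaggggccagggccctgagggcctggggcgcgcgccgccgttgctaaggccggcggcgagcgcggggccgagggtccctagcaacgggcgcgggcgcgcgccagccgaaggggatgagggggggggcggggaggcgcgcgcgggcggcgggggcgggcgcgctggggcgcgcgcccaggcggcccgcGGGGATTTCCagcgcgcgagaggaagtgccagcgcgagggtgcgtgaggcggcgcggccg
The Traf3 window was the richest of these in G and C (84.0%), against 67.0% for Birc2 and 48.7% for Traf1.

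The other genes of the pathway were read from lists. Of 52 such genes 50 were tested. The lists were chosen with earlier results of these data known, so the counts below are a description only. For the counts of each list below, 33.0% of all tested genes were higher in both experiments and 20.9% lower. In limma without a block 0 of the 50 passed (0.0125% of all tested genes did). An unadjusted p under 0.05 was reached by 4 of the 50, against 4.59% of all tested genes. With the block 4 of the 50 passed, all of them CD40-responsive genes, against 3.33% of all tested genes. The blocked calls moved with the processing: over all tested genes there were 532 as reported, 145 with median centring and 0 with quantile normalization. With quantile normalization the 4 list genes were lost too. In both of these alternatives the variance was no longer shared by all genes, so the counts do not show the scaling alone. The TAK1, IKK and ubiquitin genes, which lie directly below TRAF6 and TRAF2, showed a median of -0.010 for the log2 difference (12 genes), and in both experiments 4 were higher and 3 lower in the cultures labelled Ackr4ko. Rnf31, a subunit of the linear ubiquitin ligase, gave 0.61 ± 0.35 and the TAK1 adaptor Tab2 gave 0.42 ± 0.32 (limma SE over 2 cultures each, adjusted p = 1.00 for both). The JNK and p38 arm showed a median of -0.080 (8 genes), 1 being higher and 3 lower. The p38 kinase activator Map2k6 gave 0.73 ± 0.36, and Map3k1 gave -0.25 ± 0.35 (limma SE over 2 cultures each, adjusted p = 1.00 for both).

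NF-kappaB subunits, at the end of the pathway, differed among themselves. The median over 5 genes was 0.11, with 1 higher and 2 lower in both experiments. Nfkb2, which encodes the precursor processed in the non-canonical arm, gave 13.18 and 13.53 in the cultures labelled Ackr4ko, against 12.82 and 12.42 in those labelled WT. Nfkb1, of the canonical arm, gave 11.04 and 10.76 in the cultures labelled Ackr4ko, against 11.56 and 11.20 in those labelled WT. Neither pair of groups overlapped. The log2 differences were 0.74 ± 0.34 for Nfkb2 and -0.48 ± 0.34 for Nfkb1 (limma SE over 2 cultures each, adjusted p = 1.00 for both). The brakes of the pathway showed a median of 0.014 (10 genes), 2 being higher and 4 lower. Tnfaip3, which encodes the deubiquitinase A20, gave 0.64 ± 0.32, and Traf3ip2, which encodes the adaptor Act1, gave -0.79 ± 0.44 (limma SE over 2 cultures each, adjusted p = 1.00 for both).

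CD40-responsive genes, which activated B cells are known to switch on after CD40 engagement, showed a median of 0.34 (12 genes). In both experiments 7 were higher and 0 lower (33.0% and 20.9% of all tested genes). The chemokine gene Ccl22 gave 10.93 and 11.87 in the cultures labelled Ackr4ko, against 9.20 and 8.92 in those labelled WT, a log2 difference of 2.34 ± 0.40 (limma SE over 2 cultures each, adjusted p = 0.211). Fas, Bcl2l1 and Ccl22 were among the 4 that passed with the block. Ccl22 is also a dendritic cell gene. Of the dendritic cell markers given with Traf1, Flt3, Zbtb46 and Batf3 were brighter on both arrays labelled Ackr4ko. Itgax, Clec9a and Xcr1 were well above background on 0 of 4 arrays. The part of other cells in the Ccl22 difference was not tested. Of the related receptors and ligands, the BAFF receptor gene Tnfrsf13c gave 0.19 ± 0.33 (limma SE over 2 cultures each, adjusted p = 1.00), the median over 3 genes was 0.11, and Ltbr, like Cd40lg, did not pass the filter.

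**Figure D3:**
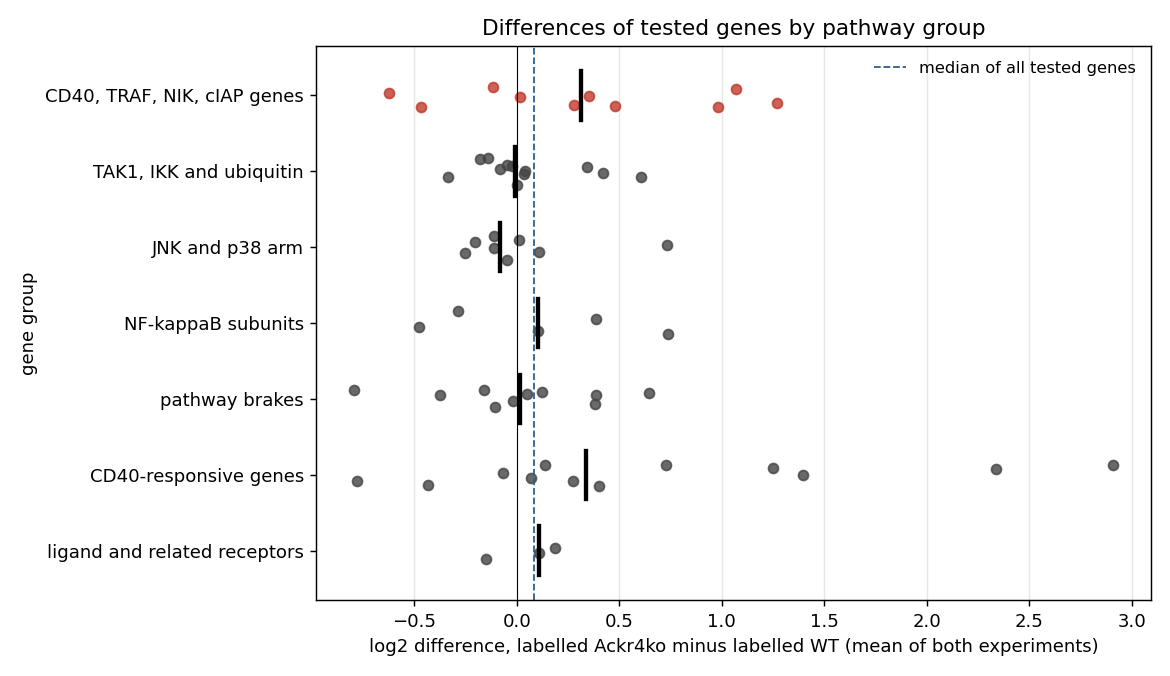
Log2 difference, labelled Ackr4ko minus labelled WT (horizontal axis, mean of both experiments), of each tested gene in 7 pathway groups, with a thick bar at each group's median and a dashed line at the median of all tested genes (0.083). The CD40, TRAF, NIK and cIAP genes (red) spread from -0.62 to 1.27 and the CD40-responsive genes, whose median is 0.34, spread more widely.

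**Figure D4:**
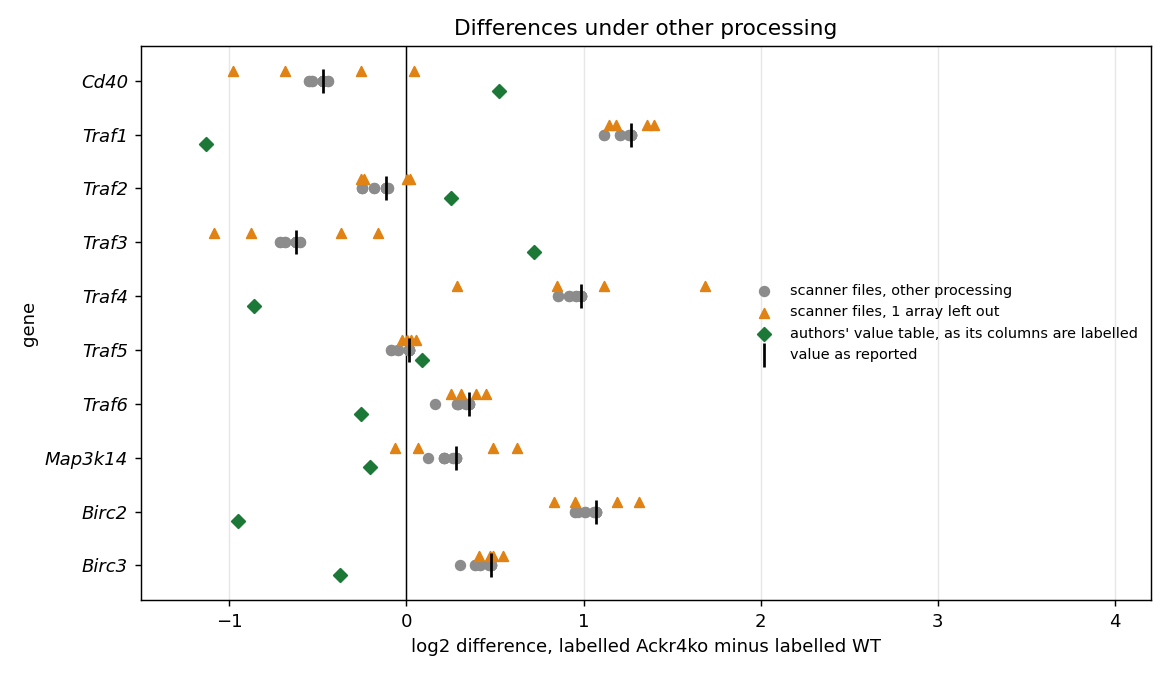
Log2 difference, labelled Ackr4ko minus labelled WT (horizontal axis), of the brightest probe of each of the 10 genes as reported (black tick), under other processing of the scanner files (grey), with 1 array left out (orange) and in the authors' value table as its columns are labelled (green). Traf1 and Birc2 stay between 0.83 and 1.40 in all settings of the scanner files, and lie at -1.13 and -0.95 in the value table.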

How the data were processed

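The deposited scanner files hold spot intensity (processed, mean and background signal) read out by the authors with Agilent Feature Extraction (version 10.7.3.1 in the submitters' processing notes), with mm9 probe positions per the file headers. RNA input was 50 ng. The authors' value table holds 1 normalized intensity per probe, made in a way not given in the sources used here. Here the processed signal was put on the log2 scale and scaled to its 75th percentile array by array. That percentile was taken over all spots but controls, outlier spots included. The 4 spots of a probe were averaged, leaving out outlier spots. Probes well above background in 50% of spots on at least 2 arrays were kept (20862), with the brightest probe per gene. The test was limma 3.58.1 under R 4.3.3 (lmFit, eBayes, Benjamini-Hochberg over 15961 genes, threshold 0.05). On simulated data the fit without a block missed nearly all 2-fold changes, and the blocked fit recovered more of them but made more false calls. The experiment, stated in the series description, pairs arrays: same-experiment deviations correlated at 0.42. The blocked fit has 1 residual degree of freedom. As reported and with normexp it gave every gene the same variance. With median centring and with quantile normalization the variance differed between genes (with median centring, SE of 0.25 for Birc3 and 0.37 for Traf4). Members and lists were chosen with earlier results of these data known. Named were all members, the 2 list genes with the largest same-signed difference where none was called (Fas and Bcl2l1 were added after their values were seen), and the 3 genes nearest Cd40 and Traf1. Some results that this rule names are not reported here. Without a block, p-values rest on the spread between 2 cultures per genotype, moderated toward that of all tested genes. With the block, as reported or with normexp, they rest on the shared variance, not on a gene's own spread. The number of arrays limits precision. Alternatives covered normalization, background correction, filters, outlier spots, probe summary, the block, each array left out and the value table. Exon annotation was not used here.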

Additional observations from a re-analysis of the deposited data

How the results depend on the processing

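No gene of the 10 was called in the fits without a block, and all of these results follow the scanner files' labels. With the experiment as a replicate block, 1 was called (Traf1, adjusted p = 0.0115) and 532 of all genes. Chosen after seeing the data, the block with normexp called 3 (Traf1, 1.26; Birc2, 1.06; Traf4, 0.96) and 347 of all genes, with median centring 0 and 145, and with quantile normalization 0 and 0 (1447 at an unadjusted p under 0.05). The block changed no other call among the 10. Over all genes, without a block, 2 were called as reported, 20 with normexp, 5 with every probe as a feature, 1 with quantile normalization, 1 with the value table, and 0 without a filter (296 at an unadjusted p under 0.05) or with probes above background on all 4 arrays (524), where fewer or more genes were tested. With 1 array left out the count ranged from 1 to 122 (1 without either Ackr4ko array, 24 without WT replicate 1, 122 without WT replicate 2).

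The value table, labelled the other way, turned the sign of 9 genes: Birc2 (-0.95), Birc3 (-0.37), Cd40 (0.52), Map3k14 (-0.21), Traf1 (-1.13), Traf2 (0.25), Traf3 (0.72), Traf4 (-0.86) and Traf6 (-0.25). Within the scanner files Traf5 turned to -0.050 with median centring, with or without the block, to -0.085 with quantile normalization, with or without the block, and to -0.035 in experiment 2 alone. Traf2 turned to 0.14 in experiment 2 alone. With 1 array left out, the range was -0.98 to 0.041 for Cd40, -0.067 to 0.62 for Map3k14, -0.26 to 0.020 for Traf2 and -0.024 to 0.051 for Traf5. Traf1, Birc2, Birc3, Traf3, Traf4 and Traf6 kept their sign in all 18 settings of the scanner files. The cause of these shifts was not tested.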
